A study of Mus musculus with 6 samples.

Results

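The genes of intraflagellar transport (IFT) and of the BBSome were followed through the cells of the mouse main olfactory epithelium (MOE). The 35 genes were taken by symbol from a fixed list, and all 35 were found among the 24564 genes that the files name. They comprised 13 IFT-B genes, 6 IFT-A genes, 7 BBSome genes, 3 genes of BBSome assembly and recruitment, 4 motor genes and 2 genes of the ciliary membrane and transition zone. Single-cell RNA-seq was available from 6 libraries, and counts were of unique molecular identifiers (UMIs) per gene and cell. In 2 swap libraries the *Cbx1* locus, which encodes HP1β, was labelled Cbx*/* and the mice carried a Cre transgene. In this allele the HP1β coding sequence is followed by that of HP1α, and Cre makes the locus express HP1α. The 2 control libraries were not of 1 genotype by their labels, since control replicate 1 was labelled WT with Cre and control replicate 2 Cbx*/* without Cre. The *gg8tTA* library came from a gg8-tTA mouse, whose transactivator is driven by the *Gng8* promoter of immature neurons. The *tetOP2* library came from a mouse that carried tetOP2iresGFP beside gg8-tTA, a transgene for the odorant receptor P2. The labels gave no age. They named the cell type as olfactory sensory neuron (OSN), but the libraries held many other cells, so each cell was placed by marker genes.

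A primary cilium is built and maintained by trains of protein that move along its axoneme. IFT-B trains with kinesin-2 motors carry cargo towards the tip, IFT-A trains with dynein-2 carry it back, and the BBSome rides on them to move membrane proteins. A mature OSN bears a tuft of long immotile cilia on its dendritic knob, and these hold the odorant receptors and the transduction machinery. Multiciliated cells of the neighbouring respiratory epithelium carry motile cilia, and most other cells of the MOE carry at most a single primary cilium.

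Kept cells, those with at least 1000 UMIs and 500 genes, numbered 2563 to 5091 per library, at a median of 9991 to 11543 UMIs. The libraries held 32005196 to 63277934 UMIs, and any pair shared between 0 and 20 cell barcodes. Cells were assigned to 17 marker gates that used none of the 35 genes. Between 4.14% and 7.85% of kept cells passed several gates and were left out, and 11.1% to 23.6% passed none. Along the lineage the gates held 252 globose basal cells (GBCs), 648 immediate neuronal precursors (INPs), 1935 early immature OSNs, 1383 late immature OSNs and 5485 mature OSNs. Mature OSNs had all 8 mature markers in every library, at a summed 10435 to 23031 UMIs per 1000000 UMIs of the sum (CPM), while the GBC markers summed to 20.5 to 88.7 CPM there. Of the mature markers *Omp*, *Cnga2*, *Adcy3*, *Cnga4* and *Ano2* also set the gate, so their levels follow in part from it. Multiciliated cells were few, 141 in all, and 3 libraries had the 20 cells required for a sum.

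The regulatory factor X (RFX) proteins are transcription factors of ciliary genes and bind a motif of 2 facing arms, 1 of which contains the letters GTTGCC. Promoters of 32 of the 35 members were found in the RefSeq promoter table for GRCm38.p6, which runs from 250 bases before to 50 bases after each start. *Ift80*, *Ift122* and *Ift81* had no entry. GTTGCC or its reverse complement lay in 14 of the 32 member promoters (43.8%), against 12.5% of all 32851 promoters in the table. In these shares members were counted once per gene, and all promoters once per entry. Of 16 overlapping spellings, chosen with the sequences in view, it was the one found in most members, while longer spellings were rarer and some exceeded their share of all promoters by more, so these shares describe the sequences and carry no test. Of the genes with an entry, the 14 were 5 of 11 IFT-B, 2 of 5 IFT-A, 3 of 7 BBSome and 3 of 4 motor genes, with *Arl13b*. The windows below show these letters in capitals for genes whose levels are described later, each 30 bases long and written 5′ to 3′ on the strand of the gene.
Kif17 (chr4:138262166-138262195, plus strand): gacgtcacggagGTTGCCcagcaacggcga
Traf3ip1 (chr1:91494577-91494606, plus strand): gggcgcgcgtccGTTGCCaaggccgcgcgg
Kif3a (chr11:53567259-53567288, plus strand): caccccgcaggcGTTGCCccagtctagcgt
Bbs7 (chr3:36613493-36613522, minus strand): gaatgcgccccgGTTGCCttggaaaccggc
Arl13b (chr16:62847204-62847233, minus strand): acagacgctccaGTTGCCtagttaccagag
Ift172 (chr5:31291097-31291126, minus strand): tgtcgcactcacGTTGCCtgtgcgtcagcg
Ift88 (chr14:57424080-57424109, plus strand): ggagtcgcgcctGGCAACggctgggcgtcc

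Of the 15 matches in the 14 promoters, 9 lay before the start and 6 of those within 100 bases of it. In *Ift172* the match began at position 1, and in *Ift88* the reverse complement began at position 22, counted from the start. A spelling of both arms of the X-box, the RFX motif, with free positions in and between them, was found in 5 member promoters (15.6%), among them that of *Bbs7*, against 1.29% of all promoters. The letters GTTGCTA, a variant of a single arm, lay in 5 member promoters (15.6%) against 3.66%. The forkhead spelling TGTTTAC lay in none of the 32 windows, against 3.65% of all.

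Transcripts of the 35 genes were sparse in basal cells and increased with each stage towards the mature neuron. Summed over the members, GBCs held 930 CPM in the lowest, 1016 in the median and 1222 in the highest of the 6 libraries. INPs held 1492, 1766 and 2014 CPM in the same order, early immature OSNs 2155, 2793 and 2846, late immature OSNs 2579, 3281 and 3537, and mature OSNs 2792, 3742 and 3996. The ranges of GBCs, INPs and early immature OSNs did not overlap, whereas those of the 3 OSN gates did. Within each library, however, the sum rose from every stage to the next. Over the 3 OSN gates it was 2812, 3537 and 3730 CPM in control replicate 1, and 2292, 2648 and 2792 CPM in *gg8tTA*. In the 2 immature and the mature gate the *tetOP2* and *gg8tTA* libraries were the lowest, at 2913 and 2792 CPM in mature OSNs against 3730 to 3996 in the swap and control libraries. They were also the lowest in INPs, at 1492 and 1570 CPM against 1727 to 2014, but not in GBCs. These 2 libraries also had another library-name prefix and another genotype than the rest. All their deposited barcodes, 2563 and 2793, passed the cell minimum, and their gates held no cell under 3000 UMIs. Neither was so in the swap and control libraries. These differences cannot be told apart, and their part in the lower levels was not tested.

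**Figure D1:**
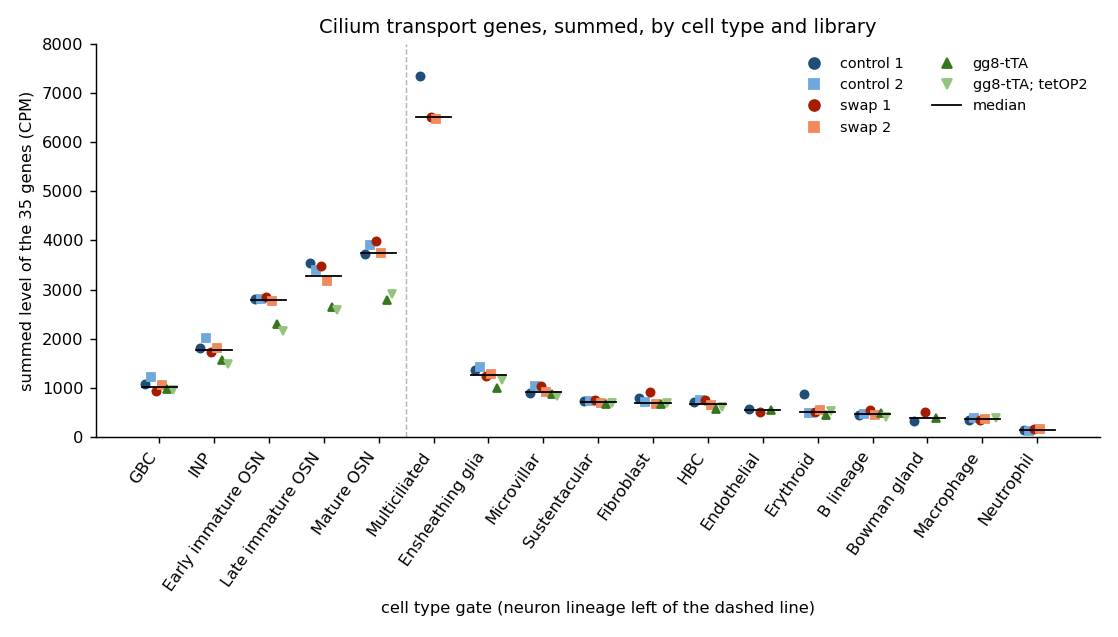
Summed CPM of the 35 members (vertical axis) in each marker gate with at least 20 cells, 1 point per library and a bar at the median. Multiciliated cells lie highest, at 6475 to 7355 CPM, followed by mature OSNs at 2792 to 3996, and neutrophils lie lowest, at 130 to 164.

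Outside the lineage, multiciliated cells held 6475, 6512 and 7355 CPM of the members in their 3 libraries, more than any mature OSN sum. Sustentacular cells, the supporting cells of the epithelium, held 677 to 756 CPM, and horizontal basal cells 572 to 743 CPM. Ensheathing glia held 1004 to 1419 CPM and microvillar cells 828 to 1039 CPM. In each of these gates but the multiciliated one, the *tetOP2* and *gg8tTA* libraries were again the lowest. This was not so in fibroblasts, B lineage cells or erythroid cells. Neutrophils, which have no cilium, held 130 to 164 CPM. UMIs of the members in neutrophils can come from free RNA, and every other gate lay above this level. The 5 neutrophil markers alone summed to 290213 to 393136 CPM there, which leaves less of the CPM for other genes. Other blood cells lay higher, macrophages at 340 to 382 CPM, B lineage cells at 414 to 555 and erythroid cells at 441 to 884. The erythroid range overlapped those of horizontal basal and sustentacular cells.

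The same order was seen cell by cell once depth was made equal. Each cell was thinned to 3000 UMIs, and the mean number of members with a UMI was 2.35 to 3.29 in GBCs, 4.12 to 5.15 in INPs, 5.38 to 6.79 in early immature, 6.07 to 8.07 in late immature and 7.10 to 8.97 in mature OSNs. Multiciliated cells reached 12.3 to 12.5, sustentacular cells 1.91 to 2.16 and neutrophils 0.270 to 0.391. Without thinning the medians were 11 to 16.5 members in GBCs, 18 to 21 in mature OSNs and 0 to 1 in neutrophils, at median depths of 18756 to 23990 UMIs in GBCs, 11309 to 12660 in mature OSNs and 5513 to 7343 in neutrophils. Cells under 3000 UMIs were left out of the thinned values, 1 GBC, 111 mature OSNs, 22 multiciliated cells and 91 neutrophils.

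By gene, the multiciliated gate had the highest median level for 23 of the 35 members and mature OSNs for 9. The exceptions were *Kif3a*, highest in late immature OSNs, *Ttc21b*, highest in early immature OSNs, and *Ift140*, highest in erythroid cells with 4.87, 101 and 337 CPM (lowest, median and highest library). The multiciliated medians rest on 3 libraries without *gg8tTA* and *tetOP2*, those of mature OSNs on 6. Of the 23, *Bbs1*, *Bbs5*, *Kif3b* and *Arl13b* lay below mature OSNs in the comparison below that blocks by library. Their log2 fold changes there were −0.14, −0.08, −0.12 and −0.12. Among the 5 stages of the lineage 26 members were highest in mature OSNs, 6 in late immature OSNs, 2 in early immature OSNs and 1, *Ift22*, in INPs.

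To place the onset, the stages were compared with edgeR's quasi-likelihood test on UMIs summed per library and stage, with the library as a block. Calls needed an adjusted p under 0.05 together with a log2 fold change beyond 0.58 in either direction, and 11743 genes were tested. From GBC to mature OSN 33 of the 35 members were called higher and 1 lower. Among all genes tested 38.8% were called higher and 29% lower. *Kif17*, with 1 UMI in pooled GBCs, could pass the count filter through the OSN sums alone, so its call is no test of direction. The same limit applies to the calls of *Bbs10* and *Bbs12*, which were also scarce in GBCs. The median log2 fold change was 2.18 over the members and 0.23 over all genes, and the latter was 0.11 with RLE scaling and 0.06 with library totals. In plain CPM 29 members had mature levels above every GBC level and 1 had them below.

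**Figure D2:**
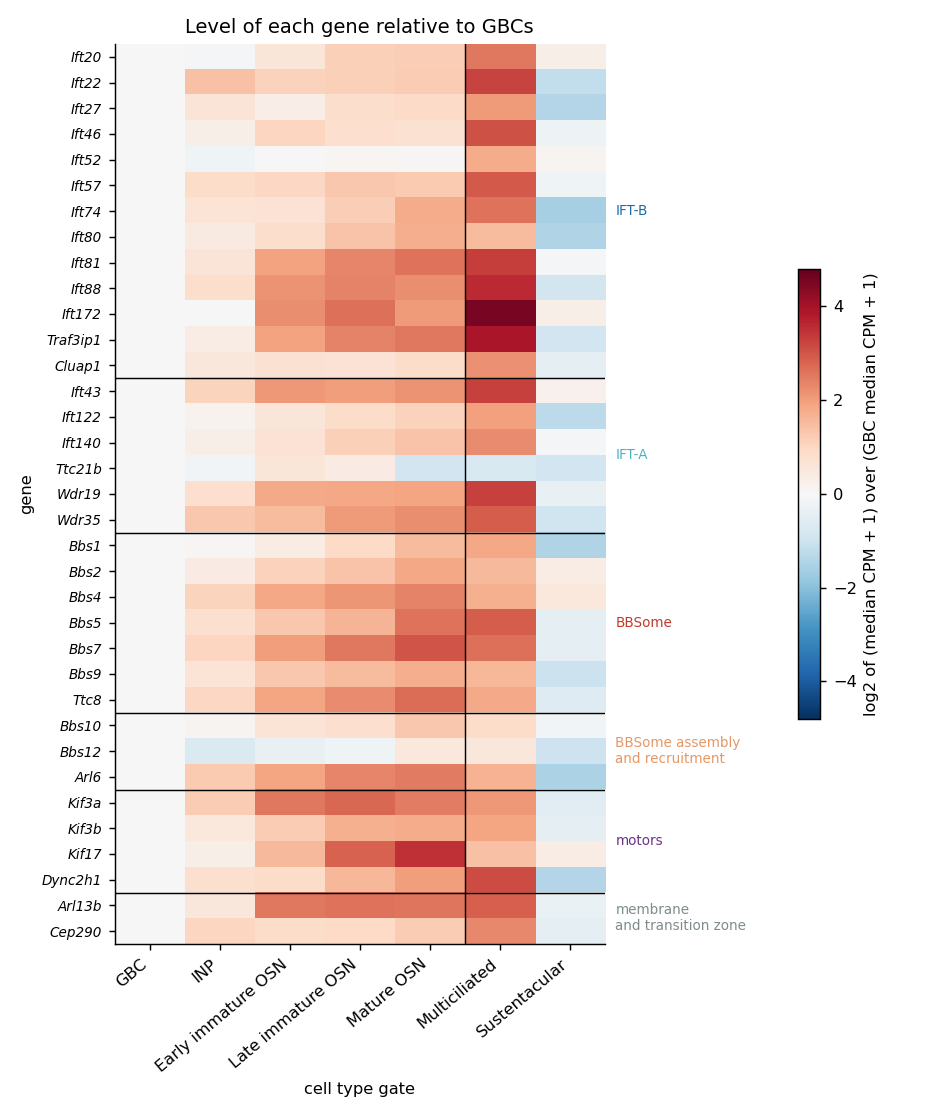
Heat map of the 35 members (rows, grouped by role) in 5 stages from GBC to mature OSN, multiciliated cells and sustentacular cells (columns), with colour for the log2 of median CPM + 1 over the GBC median CPM + 1. Most rows turn redder from GBC to mature OSN, while *Ttc21b* turns blue in mature OSNs and *Ift52* stays near 0 until the multiciliated column.

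Of the 3 kinesin-2 genes that drive anterograde transport, *Kif3a* was called higher from GBC to INP, and *Kif3b* (0.51 ± 0.19) and *Kif17* (1.88 ± 1.19) were not. *Kif3a*, a motor subunit of heterotrimeric kinesin-2, had 28.4, 50.2 and 59.8 CPM in GBCs (lowest, median and highest library), 66.8, 118 and 149 in INPs, 159, 293 and 329 in early immature OSNs, 178, 343 and 379 in late immature OSNs and 144, 277 and 292 in mature OSNs. The GBC and INP ranges did not overlap, nor did those of INPs and early immature OSNs, while the 3 OSN ranges did. In each of the 6 libraries *Kif3a* was lower in mature than in late immature OSNs, a step that was not called. Its log2 fold change was 1.35 ± 0.09 (SE) from GBC to INP and 1.14 ± 0.07 from INP to early immature OSN (edgeR adjusted p = 1.59e-12 and 7.69e-13). The partner subunit *Kif3b* was called at the second of these steps, at 0.96 ± 0.15. *Kif17*, the homodimeric kinesin-2 of the distal cilium, was all but absent from GBCs: over all their sums 1 UMI was found, in the *gg8tTA* library, and mature OSNs held 8.29, 10.5 and 17.6 CPM. The pooled ratio of mature OSNs to GBCs was 68.0, with an interval of 12.2 to 2688 for counting error. *Kif17* overlaps *Sh2d5* on the same strand, so reads in the overlap are uncertain. *Dync2h1*, the heavy chain of the retrograde motor dynein-2, rose at 3 of the 4 steps, by 0.74 ± 0.12 from GBC to INP, by 0.74 ± 0.09 from early to late immature OSN and by 0.72 ± 0.08 from late immature to mature OSN, and did not at the step between (0.04 ± 0.10).

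The IFT-B genes, whose products form the anterograde train, had more higher calls at the first 2 steps than later, as had all genes. From early to late immature OSN 1 of 13 was called higher (11.1% of all genes), and from late immature to mature OSN 2 (14.4%). At the INP step 7 of 13 were called higher (22% of all genes), among them *Ift22* (1.29 ± 0.10), a small GTPase, and *Ift57* (0.94 ± 0.09), and *Ift88* (0.93 ± 0.13), a core subunit needed for cilia to form. At the early immature step 4 were called higher (25.9% of all genes), of which *Ift81* and *Ift88* (1.10 ± 0.10) had also been called at the INP step. They were led by *Ift172* (2.06 ± 0.17, edgeR adjusted p = 9.22e-11), which takes part in the turnaround of trains at the ciliary tip, and *Traf3ip1* (1.41 ± 0.13), the IFT54 subunit. *Ift172* had 8.95, 12.5 and 24.6 CPM in GBCs and 9.19, 12.7 and 30.8 in INPs. It had 56.5, 61.9 and 85.7 CPM in early immature OSNs, 61.6, 82.9 and 98.4 in late immature OSNs and 49.2, 54.9 and 66.4 in mature OSNs. No early immature library was as low as any INP library, and the highest mature value was below the median of the late immature ones. The step from late immature to mature OSN for *Ift172* was −0.38 ± 0.12 (edgeR adjusted p = 0.0111), under the fold required.

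*Ift88* had 15.6, 20.6 and 32.6 CPM in GBCs and 56.1, 99.1 and 117 in mature OSNs, without overlap. It was lower in mature than in late immature OSNs in all 6 libraries, a step that was not called. *Ift81* and *Ift74* encode partners that together bind tubulin. *Ift81* was called at the INP step (0.71 ± 0.13) and at the early immature step (1.05 ± 0.11). *Ift74* was called at the mature step (0.65 ± 0.11), and had 0.51 ± 0.13 at the INP step and 0.50 ± 0.11 at the late immature step, under the fold required. The difference between their steps was not tested. From GBC to mature OSN 12 of the 13 IFT-B genes were called higher (38.8% of all genes). Their increases lay between 0.91 ± 0.10 for *Ift46* and 2.69 ± 0.14 for *Traf3ip1*. *Ift52*, a core subunit of the same complex, was the one not called, at 0.25 ± 0.11. It had 31.3, 44.5 and 48.5 CPM in GBCs, 35.3, 46.6 and 55.2 in mature OSNs and 44.5, 49.2 and 54.6 in sustentacular cells, ranges that overlapped.

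The products of the IFT-A genes form the retrograde train and admit membrane proteins to the cilium. Of these genes 5 of 6 were called higher in mature OSNs than in GBCs (38.8% of all genes). *Wdr19* (2.46 ± 0.18), *Wdr35* (2.41 ± 0.10) and *Ift43* (2.38 ± 0.08) had the largest increases and were first called at the INP step, at 1.19 ± 0.22, 1.11 ± 0.11 and 1.19 ± 0.09. *Ift122* and *Ift140* reached 1.60 ± 0.16 and 1.45 ± 0.13 without a call at any single step. *Ttc21b*, which encodes the IFT139 subunit, went the other way. It had 5.69, 8.67 and 23.9 CPM in GBCs, 7.36, 13.3 and 21.4 in early immature OSNs, 6.48, 11.8 and 13.9 in late immature OSNs and 2.83, 4.09 and 5.31 in mature OSNs. Every mature value was below every value of the 2 immature gates and of GBCs. It fell by 1.25 ± 0.19 on the log2 scale from late immature to mature OSN and by 1.24 ± 0.21 from GBC to mature OSN (edgeR adjusted p = 3.94e-06 and 7.65e-06), and kept both calls under each of the 14 alternatives run.

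All 7 BBSome genes were called higher in mature OSNs than in GBCs (38.8% of all genes). By step, 5 of 7 were called higher at the INP step (22% of all genes), 4 of 7 at the early immature step (25.9%), none of 7 from early to late immature OSN (11.1%), and 4 of 7 from late immature to mature OSN (14.4%). At the step without a call all 7 had values above 0, from 0.28 ± 0.11 for *Bbs4* to 0.50 ± 0.12 for *Bbs7*, under the fold required. *Bbs7*, a subunit of the BBSome core, had 4.32, 8.99 and 15.3 CPM in GBCs, 16.7, 19.4 and 22.1 in INPs, 26.3, 38.9 and 43.9 in early immature OSNs, 26.7, 56.2 and 72.0 in late immature OSNs and 41.6, 79.0 and 90.6 in mature OSNs. Its GBC, INP and early immature ranges did not overlap, and its increase of 3.11 ± 0.16 from GBC to mature OSN was the largest of the BBSome genes. *Bbs5*, a lipid-binding subunit, had 8.35, 9.75 and 12.8 CPM in GBCs, 28.4, 31.9 and 40.7 in late immature OSNs and 52.2, 64.2 and 83.2 in mature OSNs, without overlap. It rose by 1.14 ± 0.10 at the last step (edgeR adjusted p = 9.09e-10), and *Bbs1*, the subunit that meets the membrane GTPase, by 1.02 ± 0.13. *Ttc8*, also known as Bbs8, and *Bbs4* rose by 2.70 ± 0.14 and 2.53 ± 0.15 over the whole lineage.

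*Arl6*, the GTPase that brings the BBSome to membranes, rose by 1.24 ± 0.13 at the INP step and had 184, 250 and 277 CPM in mature OSNs against 24.6, 43.3 and 69.7 in GBCs. *Bbs10* and *Bbs12*, chaperonin-like genes of BBSome assembly, were called higher at the mature step (0.78 ± 0.25 and 0.84 ± 0.32), but had at most 9.87 CPM in any mature sum. Both could pass the count filter through the mature sums alone, so these calls are no test of direction. The call of *Bbs12* was kept in 7 of the 14 alternatives. *Arl13b*, a GTPase of the ciliary membrane, had 23.4, 31.0 and 38.1 CPM in INPs and 73.3, 125 and 138 in early immature OSNs, without overlap. It rose by 1.74 ± 0.11 at this step (edgeR adjusted p = 3.23e-13). It was also called at the INP step, at 0.62 ± 0.14, a call kept in 6 of the 14 alternatives. *Cep290*, which ties the transition zone to the membrane, rose by 1.04 ± 0.10 at the INP step.

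Counted over the 35 members, 20 were called higher and 0 lower from GBC to INP (22% and 18.8% of all genes), and 14 and 0 from INP to early immature OSN (25.9% and 19%). Only *Ift27*, *Kif17* and *Dync2h1* were called higher from early to late immature OSN (11.1% of all genes), and 0 lower (6.07%). From late immature to mature OSN 10 were called higher and 1 lower (14.4% and 12%). The last counts depended on the setting, with 4 called higher at the mature step when library totals set the scale or cells in several gates were kept, and 7 at the late immature step with stricter gates. The median over members was 0.71, 0.53, 0.35 and 0.36 at the 4 steps, against 0.07, 0.10, 0.00 and 0.03 over all genes. The step with the largest fitted increase was the INP step for 15 members, the early immature step for 10, the mature step for 8 and the late immature step for 2. This tally includes increases that were not called, such as 0.11 for *Ift52*, 0.48 for *Ttc21b* and 1.88 for *Kif17*.

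Within the gated OSNs the order was also read by the share of *Omp* among the *Omp* and *Gap43* UMIs of each cell. By the gate rules, cells above 50% were all mature OSNs and the others all immature, so this reading keeps the gate boundary. *Omp* marks mature and *Gap43* growing neurons. Cells without *Omp* held 2089, 2767 and 2865 CPM of the members (lowest, median and highest library). Cells with up to 25% held 2262, 3235 and 3351 CPM, and cells with 25% to 50% held 2506, 3562 and 3770. Above that, the medians were 3731 CPM at 50% to 75%, 3767 at 75% to 90% and 3733 at 90% to 100%. Among the mature OSNs, those above 50%, the median thus varied by less than the spread between libraries.

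Mature OSNs and sustentacular cells share an epithelium but not the cilia. Of the 33 members tested, 31 were called higher in mature OSNs and 0 lower, against 34.2% and 28.6% of 14856 genes. *Bbs10* and *Bbs12* did not pass the count filter. *Kif17*, all but absent from sustentacular cells, could pass it through the OSN sums alone, so its higher call is no test of direction. The median log2 fold change was 2.87 over the members and 0.16 over all genes. *Arl6* differed most among the members that had UMIs in every sustentacular sum, by 4.17 ± 0.14, with 9.47 to 21.8 CPM in sustentacular cells. *Ift52* (0.05 ± 0.10) and *Ttc21b* (0.22 ± 0.27) were not called.

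Motile and olfactory cilia were compared in multiciliated cells and mature OSNs, and IFT-B and BBSome genes differed in their counts. Of the 33 members tested 16 were called higher and 5 lower in multiciliated cells, against 25.4% and 30.5% of all genes. Of the IFT-B genes 10 of 13 were called higher and none lower, with a median log2 fold change of 1.14, and of the IFT-A genes 4 of 6, with a median of 0.72. Of the BBSome genes 0 of 7 were called higher and 2 lower, with a median of −0.40. The scaling matters here, since the median of all genes was −0.31 with TMM, 0.04 with RLE and −0.07 with library totals. With RLE 12 of 13 IFT-B genes were called higher, and 0 of 7 BBSome genes were higher and 1 lower, with 3 of 7 above 0.

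**Figure D3:**
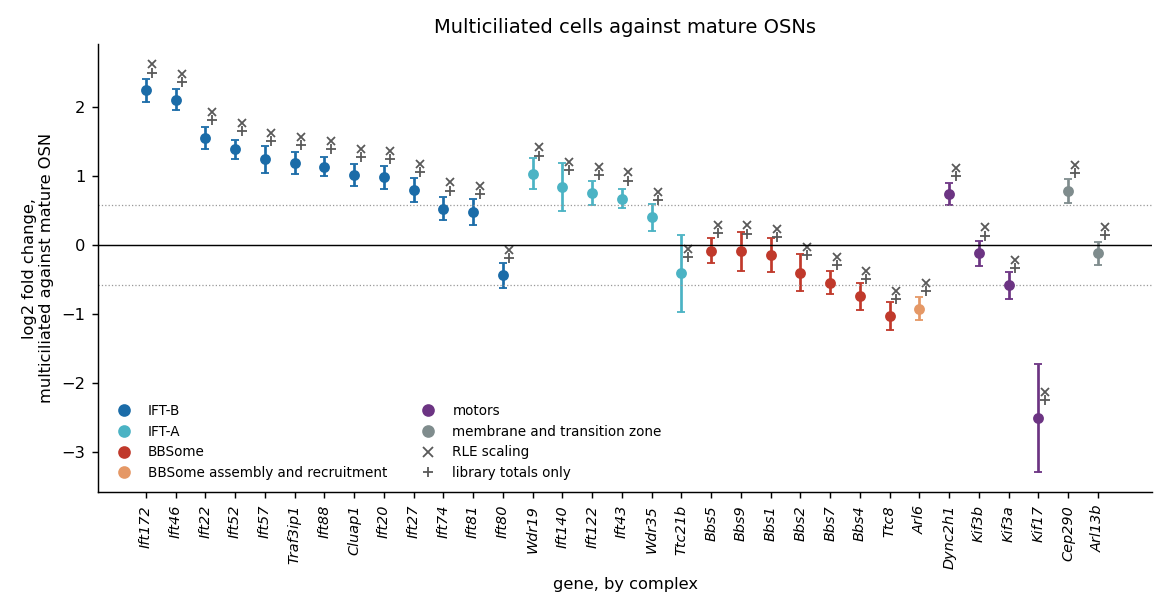
Log2 fold change of multiciliated cells against mature OSNs for the 33 tested members by role, as points with the standard error under TMM scaling, with crosses for RLE scaling and for library totals and dotted lines at the fold required. Most IFT-B and IFT-A genes lie above 0, the BBSome points at or below it, some of their crosses above it, and *Kif17*, *Ttc8* and *Arl6* lie lowest.

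*Ift172* had 295, 318 and 354 CPM in multiciliated cells (control replicate 1, swap replicate 1 and swap replicate 2), above all 6 mature values of 49.2 to 66.4, and its log2 fold change was 2.24 ± 0.17 (edgeR adjusted p = 4.73e-20). *Ift46*, an IFT-B subunit known for carrying axonemal dynein parts, had 384, 266 and 174 CPM against 35.7 to 74.5, a difference of 2.11 ± 0.15. *Ift88* had 257, 206 and 295 CPM against 56.1 to 117, a difference of 1.14 ± 0.14. None of these groups overlapped. *Ift22* (1.56 ± 0.16), *Ift52* (1.39 ± 0.14) and *Ift57* (1.25 ± 0.20) were also called higher, so *Ift52* was called in this comparison and not along the lineage.

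No BBSome gene was called higher in multiciliated cells. *Ttc8* had 42.1, 48.6 and 36.0 CPM in multiciliated cells and 58.5 to 93.9 in mature OSNs, without overlap, and a log2 fold change of −1.03 ± 0.20 (edgeR adjusted p = 6.37e-06). *Bbs4* stood at −0.74 ± 0.19 and *Arl6* at −0.92 ± 0.17. *Bbs1*, *Bbs5* and *Bbs9* were not called and changed sign with the scaling, from −0.14, −0.08 and −0.08 with TMM to 0.24, 0.29 and 0.29 with RLE, as did *Kif3b* and *Arl13b*. The motors differed among themselves. *Dync2h1* was called higher (0.74 ± 0.16) and *Kif3a* lower (−0.58 ± 0.19). *Kif17* was called lower, with 6.65, 0 and 1.64 CPM against 8.29 to 17.6. It could pass the count filter through the OSN sums alone, so this call is no test of direction. The lower calls of *Kif3a*, *Arl6* and *Bbs4* were lost with RLE. Of the 14 alternatives, *Kif3a*, at the edge of the fold required, kept its call in 8, *Bbs4* in 9 and *Arl6* in 12.

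A ratio within the same cells needs no scaling. Per UMI of the BBSome genes, GBCs had 6.29 to 8.09 UMIs of the IFT-B genes, INPs 5.42 to 7.35, early immature OSNs 4.06 to 5.40, late immature OSNs 3.86 to 5.04 and mature OSNs 3.48 to 4.01. Multiciliated cells had 10.0 in control replicate 1, 11.7 in swap replicate 1 and 10.8 in swap replicate 2. The multiciliated values lay above those of every sum of the lineage, and the mature values were below those of GBCs, INPs and early immature OSNs in every library. Ratios as high were also found outside the lineage in cells without motile cilia, at 7.85 to 13.2 in fibroblasts, 13.8 to 36 in B lineage cells, 8.63 to 27.2 in erythroid cells and 10.0 to 37.5 in Bowman gland cells. Of these gates, the B lineage, erythroid and Bowman gland sums held as few as 3, 5 and 4 BBSome UMIs. A low ratio was not confined to the lineage either. Microvillar cells, with 26 BBSome UMIs or more, had 3.88 to 5.68. Their range overlapped those of late immature and mature OSNs, though each value was above the mature one of the same library. The multiciliated sums held sustentacular markers at 1559 to 5658 CPM, against 29498 to 45170 CPM in sustentacular cells, and B lineage markers at 202 to 743 CPM. The 8 mature OSN markers summed to 64.3 CPM or less there. The part of these other transcripts in the result was not tested.

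**Figure D4:**
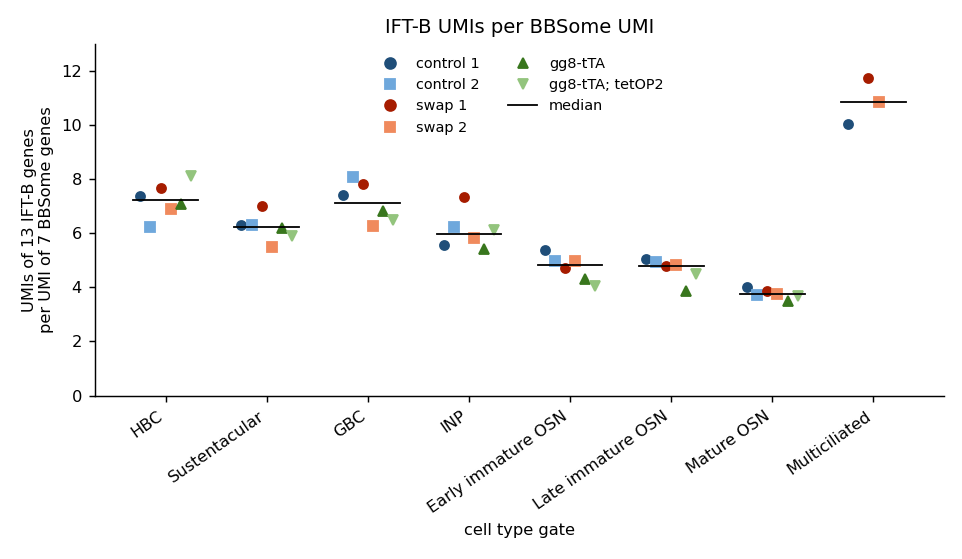
UMIs of the IFT-B genes per UMI of the BBSome genes (vertical axis) in horizontal basal cells (HBC), sustentacular cells, the 5 stages of the lineage and multiciliated cells, 1 point per library and a bar at the median. The ratio is 6.29 to 8.09 in GBCs, 3.48 to 4.01 in mature OSNs and 10.0 to 11.7 in multiciliated cells, with horizontal basal cells at 6.23 to 8.13 and sustentacular cells at 5.49 to 6.99. Fibroblasts, at 7.85 to 13.2, microvillar cells, at 3.88 to 5.68, and the remaining gates are not drawn.

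Other ciliary genes, in 4 lists that hold none of the members, gave the context of these changes. Among all genes tested, 38.8% were called higher and 29% lower in mature OSNs than in GBCs. In multiciliated cells against mature OSNs the shares were 25.4% and 30.5%. Of 16 tested genes of the other IFT, BBSome and dynein-2 subunits, 15 were called higher in mature OSNs than in GBCs (median 1.55), led by *Ttc30b* (3.21 ± 0.21), *Kifap3* (3.08 ± 0.12), the third subunit of kinesin-2, and *Arl3* (2.68 ± 0.16), a GTPase that releases ciliary cargo. In multiciliated cells 10 of 16 were called higher than in mature OSNs, led by *Ttc30a1*, *Dync2li1* and *Tctex1d2* at 2.36 ± 0.35, 2.13 ± 0.15 and 1.71 ± 0.16. *Kifap3* (−1.58 ± 0.20) and *Arl3* (−1.03 ± 0.18) were called lower, *Kifap3* in the direction of its partner *Kif3a*. Of 19 transition zone and basal body genes, 16 were called higher in mature OSNs than in GBCs (median 1.14), led by *Ahi1* (2.80 ± 0.17), *Tmem231* (2.75 ± 0.20) and *Rpgrip1l* (2.54 ± 0.17). In multiciliated cells 14 of 20 were called higher, with *Tctn2* (2.58 ± 0.25) and *Tctn1* (2.22 ± 0.39) among the highest, and *Ahi1* (−1.95 ± 0.22) and *Ofd1* (−0.90 ± 0.22) lower.

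Of 18 listed genes of the motile axoneme, 16 were in the data and 10 passed the count filter along the lineage. All 10 were called higher in mature OSNs than in GBCs (38.8% of all genes). Genes with few UMIs in GBCs could pass this filter through the OSN sums alone, so this count is no test of direction. *Drc1*, of the nexin-dynein regulatory complex, had a log2 fold change of 6.92 ± 0.42. *Rsph4a*, a radial spoke gene, had 47.2 CPM in pooled mature OSNs against 1 UMI in pooled GBCs. *Dnah11*, a dynein arm gene, had 31.9 CPM against 2 UMIs. Of 15 tested, 14 were called higher again in multiciliated cells than in mature OSNs (25.4% of all genes). The filter could be passed there through the multiciliated sums alone. The median was 2.55, with *Cfap43* (7.62 ± 0.40), *Dnah9* (6.22 ± 0.28) and *Hydin* (6.12 ± 0.28) in front. Among transcription factors of cilium genes 3 of 6 were called higher and 1 lower in mature OSNs (38.8% and 29% of all genes). Here too genes could pass the count filter through the gate where they were high. Neither this count nor the one for multiciliated cells below is thus a test of direction. *Rfx3* rose by 3.27 ± 0.12 and *Rfx2* by 1.90 ± 0.25, *Rfx4* had 9.52 CPM in pooled mature OSNs against 1 UMI in GBCs, and *Myb* fell by 6.09 ± 0.36. Against mature OSNs, 4 of 8 were called higher in multiciliated cells and 3 lower (25.4% and 30.5% of all genes). *Trp73* (7.33 ± 0.61) and *Myb* (6.28 ± 0.35) led the former, with *Gmnc* at 15 UMIs in multiciliated cells against 1 in mature OSNs, and *Rfx7* (−0.94 ± 0.24) and *Rfx3* (−0.68 ± 0.20) were among the latter. *Rfx4* had 0 UMIs in the multiciliated sums, so that its level was at least 6.16-fold lower than the 8.85 CPM of mature OSNs, with a floor of 3 UMIs over the group.

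Members with and without the RFX letters were set side by side. With them 14 of 14 were called higher in mature OSNs against GBCs, with a median of 2.34. Without them, or without a promoter entry, 19 of 21 were called higher, with a median of 2.05. The share of all genes called higher was 38.8%. In multiciliated cells against mature OSNs the medians were 0.57 and 0.53.

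Among the 10 genes outside all lists whose level over the 30 library and stage sums was most like the member sum were *Tspyl4* (Pearson r = 0.976), *Flrt1* (0.975), *Cdkl2* (0.974), *Pcnxl2* (0.974), *Kcnk10* (0.972), *Irak1bp1* (0.969), *Scg3* (0.968), *Lrriq1* (0.967) and *Stx2* (0.967). They were taken from 10718 genes compared, and the sums of a library share its depth and cells. Among the members *Ift81* (0.978) and *Bbs7* (0.964) followed the sum most closely, and *Ttc21b* (−0.15), *Bbs12* (0.29) and *Ift52* (0.38) least. Each member is part of the sum, so its value cannot be set beside those of the genes outside it.

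Swap and control libraries were then compared in mature OSNs, to ask whether replacing HP1β with HP1α in these mice touched the ciliary genes. The targeted gene followed the labels. Plain CPM of *Cbx1* were 1.06 and 3.30 in swap replicates 1 and 2 against 80.7 and 154 in control replicates 1 and 2, and *Cbx5*, which encodes HP1α, had 77.2 and 88.8 CPM against 19.8 and 29.6. With 2 libraries each, the log2 fold change of *Cbx1* in mature OSNs, −5.71 ± 0.66, had an edgeR adjusted p of 0.0969, and only in INPs with GBCs was it called (−4.88 ± 0.44, edgeR adjusted p = 0.00441).

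None of the 35 members was called between swap and control in mature OSNs by edgeR, where 0% of 12733 genes were called higher and 0.0157% lower. The log2 fold changes lay between −0.40 and 0.23 with a median of −0.03, against −0.02 over all genes, and their standard errors were 0.18 to 0.52 with a median of 0.25. At an unadjusted p under 0.05 the count was 0 of 35 members and 339 of all genes, and DESeq2 also called 0 members. *Ift88* had 103 and 118 CPM (TMM-scaled, as for all swap and control values that follow) in swap and 97.1 and 109 in control, which overlapped (0.10 ± 0.19). *Kif3a* had 284 and 271 CPM against 297 and 281, which also overlapped (−0.06 ± 0.18). In 2 members both swap libraries were above both controls: *Ift140* had 33.5 and 31.9 CPM against 27.5 and 29.8, and *Bbs4* 96.1 and 85.4 against 85.3 and 83.7. None had both below. Among all genes 9.27% had both above and 10.1% both below.

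**Figure D5:**
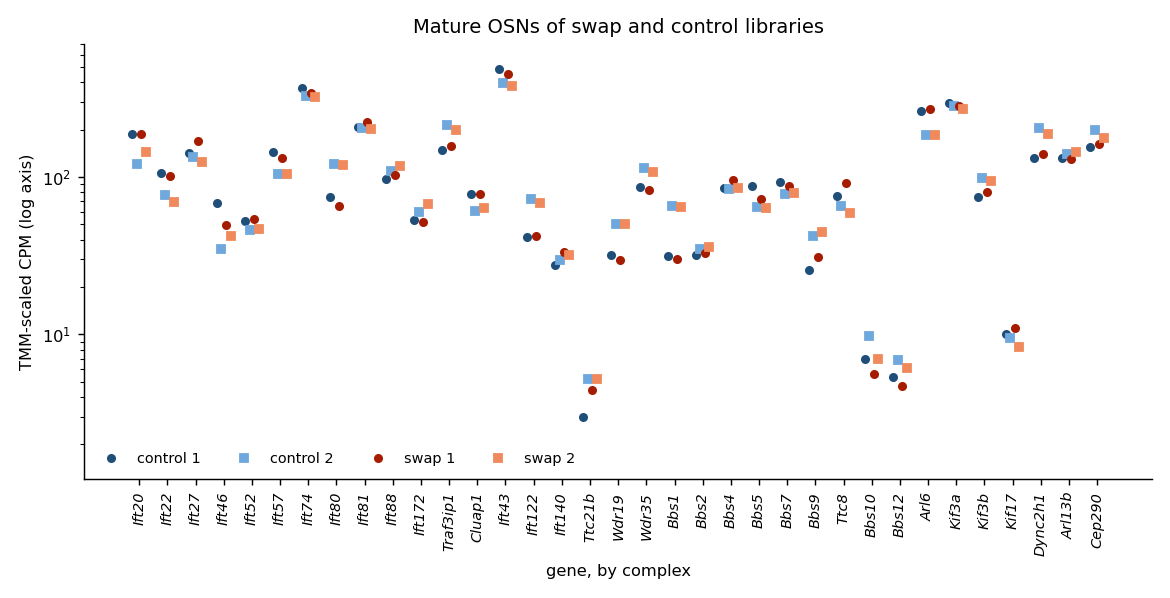
TMM-scaled CPM of each of the 35 members in mature OSNs (log axis), with 1 point for each of the 2 swap and 2 control libraries. Points of both genotypes interleave in 33 members, and only *Ift140* and *Bbs4* have both swap libraries above both controls.

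For many members the libraries of 1 number lay apart from those of the other in both genotypes. In plain CPM of mature OSNs, both libraries of number 2 were above both of number 1 in 17 of 35 members. They were below in 13. Among 11499 genes the shares were 36.0% and 31.5%. The number in the labels went with a shared library-name prefix, whose meaning is not stated. *Bbs1* had 30.2 and 64.8 CPM in swap replicates 1 and 2, and 31.5 and 65.3 in control replicates 1 and 2. *Arl6* had 270 and 185 CPM in swap and 262 and 184 in control. In both genotypes the replicate 2 library was thus high for *Bbs1* and low for *Arl6*. Within number 1, the difference of swap minus control had a median of 0.00 over the members and a range of −0.45 to 0.46 on the log2 scale, and within number 2 a median of −0.01 and a range of −0.42 to 0.25.

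Earlier cells gave no calls among the members either. In immature OSNs the edgeR count was 0 of 35, with 0% of all 11983 genes called in either direction and 263 at an unadjusted p under 0.05, of which 0 were members. The values lay between −0.48 and 0.24 (median −0.10, against −0.01 over all genes). Of the 35, 8 were above 0, a count without the share of all genes beside it. Both swap libraries were above both controls for *Ift52* and below for *Cep290*, *Cluap1*, *Arl13b* and *Bbs12*, that is 1 and 4 of 35, against 10.6% and 10.5% of all genes. *Cluap1*, the IFT38 subunit, had 60.7 and 51.4 CPM against 71.2 and 63.8, a difference of −0.27 ± 0.21.

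In INPs with GBCs 0 of the 32 tested members were called by edgeR or by DESeq2, and 0.0842% of all genes were called higher and 0.0281% lower. At an unadjusted p under 0.05 there were 0 members and 409 of 10688 genes. Of the 32, 27 lay below 0 within number 1 and 20 within number 2, and the fitted median was −0.27, against 0.01 over all genes. The share of all genes below 0 was not taken, and members share their libraries, so these sign counts carry no test. *Ift27* was above in both swap libraries, and *Kif3a*, *Ttc8*, *Cluap1*, *Ift57*, *Arl6*, *Bbs5*, *Ift74* and *Ift81* were below, 1 and 8 of 32 against 13.6% and 13.6% of all genes. *Kif3a* had 82.9 and 85.8 CPM in swap and 116 and 107 in control, a difference of −0.40 ± 0.25 that the test did not call. INPs, which have higher member levels than GBCs, made up 56.7% of the cells of this gate in swap replicate 1, 74.5% in swap replicate 2, and 76.3% and 71.1% in control replicates 1 and 2. The part of this difference in the values was not tested.

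The step from immature to mature OSN was compared between the genotypes by the interaction term, and edgeR and DESeq2 called 0 of 35 members (0% of 13297 genes by edgeR). The differences of the step, swap minus control, lay between −0.45 and 0.32, with a median of 0.10 against 0.01 over all genes. *Cluap1* was the member under an unadjusted p of 0.05, at 0.31 ± 0.10 (edgeR adjusted p = 1), and 422 of all genes were under it. Of the 4 lists of other ciliary genes, none had a gene called in any of these comparisons.

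The *tetOP2* and *gg8tTA* libraries, 1 each and without a test, were close in mature OSNs. The members summed to 2913 CPM in *tetOP2* (95% exact Poisson interval 2875 to 2951) and 2792 CPM (2757 to 2828) in *gg8tTA*, and these intervals cover counting error only. None of the 35 members differed by more than 0.58 in log2, where 9.66% of 10992 genes did. The differences ran from −0.38 for *Bbs1*, at 25.0 against 32.4 CPM, to 0.49 for *Ift46*, at 74.5 (68.5 to 80.9) against 52.9 (48.2 to 58.0) CPM. *Ift46* was also the member past this fold in INPs, 1 of 23 with enough UMIs, at 66.1 against 35.9 CPM, where 6.97% of all genes were past it. In early immature OSNs 1 of 32 members was past it, *Ttc21b* at 12.6 against 7.36 CPM (7.04% of all genes), in late immature OSNs 0 of 30 (8.44%), and in GBCs 1 of 9, *Ift20* at 41.2 against 64.8 CPM (8.95%).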

How the data were processed

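The authors deposited counts, namely raw UMI counts per gene and cell barcode for each of the 6 libraries, made with Cell Ranger with introns included from Chromium libraries of papain-dissociated MOE. Per the labels the build was mm10, and the headers of the swap and control matrices name software version 3.1.0. The files pair symbols with no other identifier. A part of the genotype labels and some genes and sequences that the rules below would name are not reported here. The members and lists were chosen with earlier results of these data known.

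Cells of at least 1000 UMIs and 500 genes were kept. A mature OSN had at least 3 Omp UMIs, more Omp than Gap43, and at least 2 of the 4 genes Cnga2, Adcy3, Cnga4 and Ano2. Immature OSNs had at least 3 Gap43 UMIs and no fewer than Omp, late ones at least 3 Gnal UMIs, and early ones fewer with Gng8. INPs had at least 3 UMIs of Neurog1 and Neurod1, and GBCs were gated by basal cell markers that include Kit, Lgr5, Sox2 and Hes6. Other gates needed 2 to 4 markers. Cells in several gates were left out as possible doublets, and no doublet caller was run.

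UMIs were summed per library and gate of at least 20 cells and tested across all genes with edgeR 4.0.16 (quasi-likelihood test, TMM, filterByExpr, Benjamini-Hochberg adjustment) in R 4.3.3, with the library as a block except for swap against control. The scripts were tested on simulated data. With the library as a block, the p-values rest on how differences within a library vary between libraries. For swap against control they rest on the spread between libraries of a genotype. That spread includes the difference by replicate number and the different labels of the 2 controls. With 2 against 2 libraries an exact permutation test cannot go below 0.333 and was not used. Named genes were all members, the 3 most changed called genes in each direction of each list, the 10 most alike, and Cbx1 and Cbx5. CPM are not per length, so levels were compared within a gene. Gene overlaps are from GENCODE on GRCm38. Alternatives were RLE scaling, library totals, DESeq2 1.42.0, no count filter, a stricter gate, cells of at least 3000 UMIs, cells in several gates kept, only the 4 swap and control libraries, each library left out, and the replicate block.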

Additional observations from a re-analysis of the deposited data

How the results depend on the processing

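Members were called higher in mature OSNs than in GBCs in 32 or 33 cases of 35 under each alternative, and 31 or 33 were called higher than in sustentacular cells. From late immature to mature OSN 10 members were called higher in the main test, 4 with library totals, 4 with cells in several gates kept, and 7 to 12 with 1 library left out. From early to late immature OSN 3 were called, 7 with the stricter gate, 5 with only the swap and control libraries, and 2 to 4 with 1 library left out. With 1 library left out the counts were 16 to 25 at the INP step and 13 to 17 at the early immature step. In multiciliated cells against mature OSNs 5 members were called lower in the main test, 2 with RLE scaling, 3 with library totals, 2 with DESeq2, 3 with cells in several gates kept and 3 to 6 with 1 library left out, the lowest without swap replicate 1, while 14 to 19 were called higher. The causes were not tested. No member that was called in the main test or in an alternative changed sign between them, whereas values of members that were not called did, mostly between swap and control.

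No member was called between swap and control under any alternative, with the 2 libraries of a number as a replicate block included (0 of 35, 0 of 35 and 0 of 32). The labels do not say what the number marks. Over genes, the difference of library 2 minus library 1 correlated between the genotypes at 0.273 in mature OSNs, 0.325 in immature OSNs and 0.567 in INPs with GBCs, and over the members at 0.883, 0.801 and 0.668. Depth limits Kif17, Bbs10, Bbs12 and Ttc21b, and 111 cells in 3 libraries limit the multiciliated values.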

Other observations

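Single members stood out in cells outside the neuron lineage, given as levels without a test and chosen after their values were seen. *Ift57* had 94.3, 248 and 355 CPM in ensheathing glia (lowest, median and highest of 6 libraries), against 90.8, 106 and 138 in mature OSNs. *Ift46* had 41.2, 88.8 and 120 CPM in microvillar cells, against 35.7, 52.0 and 74.5 in mature OSNs. *Ift20*, an IFT-B subunit that also sits at the Golgi, had 136, 195 and 292 CPM in fibroblasts, against 122, 151 and 194 in mature OSNs. The ranges of all 3 genes overlapped those of mature OSNs.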
